A study of Mus musculus with 6 samples.

Results

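The 10 genes described here encode transcription factors of lymphocyte development: Ebf1, Pax5, Ikzf1, Ikzf2, Ikzf3, Bach2, Foxo1, Bcl11a, Bcl11b and Tcf7. They were taken from a list of gene names, out of 21887 protein-coding genes with a RefSeq position, and all 10 were found. A peak was counted for a gene when it overlapped the gene's RefSeq span or the 5 kb at either end. Peaks of the 4 libraries that overlapped by at least 1 bp were merged into regions, and 130 of the 174070 regions of the genome belonged to these genes. The measured mark is 5-hydroxymethylcytosine (5hmC), mapped by pulling down 5hmC-bearing DNA with an antibody and sequencing it, after which the authors called peaks.

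All cells were primary C57BL/6 mouse bone marrow cells enriched for Kit, the stem cell factor receptor found on early blood cells. They carried Tet2 fl/fl, in which loxP sites flank part of Tet2, together with CreER, a recombinase that 4-hydroxytamoxifen switches on. They had been transduced with MigR1-AE-IRES-GFP, a retrovirus for AML1-ETO, a fusion protein that drives some acute myeloid leukaemias. Before treatment all were replated 3 times in methylcellulose and then grown in suspension with SCF, IL-3 and IL-6 (IL-3 and IL-6 at 10 ng/ml each). KO cultures (Tet2-/-) were given 200 nM 4-hydroxytamoxifen for 2 passages (4 days), and flox cultures (Tet2 fl/fl) were given ethanol. The sort kept GFP+ cells that were CD16/32+ and lacked CD11b and Gr1, labelled as immature myeloid, and the libraries carry the label passage 5. The treatment protocol speaks of a longer series of passages after the drug, so the time since the loss of Tet2 is not clear. There were 2 KO and 2 flox libraries, each with its own peak list of 116539 to 122101 peaks covering 110.3 to 113.3 Mb, and the number of reads behind them was unknown. Whether the replicates came from separate cultures is not given, so p-values measure a spread between libraries that may be technical. KO cultures alone received the drug and had active Cre, and these effects and those of losing Tet2 cannot be told apart. Peaks hold no RNA, so neither the cell type nor the activity of a gene was checked here. In a pool of cells, fewer cells with the mark and less of it per cell cannot be told apart.

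TET enzymes make 5hmC by oxidising 5-methylcytosine, the methylated base of CpG sites, and Tet2 is the family member most often mutated in human myeloid neoplasms. In the mouse bone marrow, B lymphocytes arise through a chain of transcription factors in which Foxo1 and Ebf1 act early and Pax5 fixes the B cell fate. In the thymus, Tcf7 starts and Bcl11b completes commitment to the T lineage. Ikaros family factors act in both lineages.

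RefSeq promoter windows (250 bases before to 50 after a start, assembly GRCm38.p6) matched 8 of the 10 genes with 11 windows, and Ikzf2 and Ikzf3 had none in the table. Of the 11 windows, 3 were touched by a peak in at least 1 library and 0 by peaks in all 4, while 14.2% and 5.19% of all 32851 windows were, so most windows lacked a peak here as in the genome. The 6 windows below hold the only promoter peaks of these genes, or show windows without a peak that are rich in CpG sites or lie close to a region. Capitals mark each CG, a motif that reads the same on both strands, and 94.6% of all windows hold at least 1.
Ebf1, start at 44618100 (chr11:44617850-44618149, plus strand): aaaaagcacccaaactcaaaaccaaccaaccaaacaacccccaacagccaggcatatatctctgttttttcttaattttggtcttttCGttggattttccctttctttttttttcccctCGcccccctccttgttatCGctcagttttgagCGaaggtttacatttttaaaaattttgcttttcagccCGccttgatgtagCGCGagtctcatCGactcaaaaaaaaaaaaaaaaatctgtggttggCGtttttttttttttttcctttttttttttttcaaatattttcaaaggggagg
Ebf1, start at 44620228 (chr11:44619978-44620277, plus strand): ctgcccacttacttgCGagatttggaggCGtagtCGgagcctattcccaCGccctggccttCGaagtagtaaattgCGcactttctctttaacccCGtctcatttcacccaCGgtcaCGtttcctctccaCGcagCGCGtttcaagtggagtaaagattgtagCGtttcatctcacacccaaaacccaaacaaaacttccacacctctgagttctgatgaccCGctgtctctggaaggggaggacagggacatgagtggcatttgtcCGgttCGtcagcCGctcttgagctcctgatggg
Pax5 (chr4:44710645-44710944, minus strand): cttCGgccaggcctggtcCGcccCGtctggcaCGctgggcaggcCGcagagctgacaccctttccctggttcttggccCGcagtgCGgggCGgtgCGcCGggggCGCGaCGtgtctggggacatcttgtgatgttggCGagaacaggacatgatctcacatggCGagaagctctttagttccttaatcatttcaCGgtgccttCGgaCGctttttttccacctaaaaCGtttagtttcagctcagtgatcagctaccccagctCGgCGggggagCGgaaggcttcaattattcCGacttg
Bcl11b (chr12:108003365-108003664, minus strand): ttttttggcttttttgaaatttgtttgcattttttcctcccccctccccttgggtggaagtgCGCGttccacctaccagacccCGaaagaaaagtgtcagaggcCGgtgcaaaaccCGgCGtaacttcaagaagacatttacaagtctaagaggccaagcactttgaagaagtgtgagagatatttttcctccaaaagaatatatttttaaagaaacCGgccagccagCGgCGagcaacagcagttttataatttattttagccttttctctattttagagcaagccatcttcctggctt
Ikzf1 (chr11:11685675-11685974, plus strand): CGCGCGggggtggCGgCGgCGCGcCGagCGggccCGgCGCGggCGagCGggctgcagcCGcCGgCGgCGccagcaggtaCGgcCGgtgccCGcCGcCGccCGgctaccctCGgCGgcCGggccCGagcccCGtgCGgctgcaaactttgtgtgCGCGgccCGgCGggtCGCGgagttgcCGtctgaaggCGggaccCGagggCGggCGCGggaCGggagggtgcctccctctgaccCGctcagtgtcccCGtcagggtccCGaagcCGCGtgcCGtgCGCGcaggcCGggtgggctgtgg
Tcf7 (chr11:52282965-52283264, minus strand): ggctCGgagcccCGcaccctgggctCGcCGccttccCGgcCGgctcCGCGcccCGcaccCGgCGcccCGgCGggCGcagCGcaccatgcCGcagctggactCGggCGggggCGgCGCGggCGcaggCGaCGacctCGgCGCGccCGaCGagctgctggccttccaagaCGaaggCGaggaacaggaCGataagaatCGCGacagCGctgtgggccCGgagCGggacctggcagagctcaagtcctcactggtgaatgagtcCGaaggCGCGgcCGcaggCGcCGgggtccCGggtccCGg

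The first Ebf1 window holds 9 CG, and peaks covered 64 bp of it in KO replicate 1 and 29 bp in flox replicate 1. The peaks of KO replicate 2 and flox replicate 2 in the same region began further into the gene. The second Ebf1 window holds 17 CG and carried no peak, with the nearest region 491 bp from its start site. The Pax5 window holds 23 CG, and a peak of KO replicate 2 alone covered 100 bp of it. The Bcl11b window holds 9 CG, and a peak of flox replicate 1 alone covered 104 bp. Both of these peaks had scores near the lowest that the authors' caller kept, 52.5 at Pax5 and 52.76 at Bcl11b, where the lowest score in each list was 50. The score is 10 times the negative log10 of the caller's p-value within that library. The windows richest in CG had no peak: Ikzf1 with 52 CG, at or above 99.5% of all windows, had its nearest region 24969 bp away, and Tcf7 with 45 CG had its nearest region 3712 bp away. Foxo1 (31 CG), Bcl11a (23 CG) and Bach2 (7 CG) also had none over their windows. Among the printed windows, those of Tcf7, Ikzf1 and Bcl11b and the second of Ebf1 lie wholly inside the RefSeq gene span. The median window of these genes held 17 CG, against 7 over all windows. Most windows of the genome lacked a peak at any CG content. At least 1 library had a peak over 15.8% of windows with 20 to 67 CG and 11.2% of those with 0 to 4 CG. Of the 5 windows of these genes with 20 to 67 CG, 1 had a peak.

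Over the intervals, each a gene span with 5 kb at both ends, the share of sequence called as 5hmC differed widely. Averaged over the 4 libraries, it was 12.0% of the interval at Ikzf3, 8.44% at Tcf7, 7.52% at Bcl11a, 7.45% at Pax5, 5.53% at Bach2, 5.19% at Bcl11b, 2.94% at Ebf1, 1.81% at Ikzf1, 1.44% at Foxo1 and 1.01% at Ikzf2. The median over all protein-coding genes was 3.23%, a value that counts short and long genes alike. Ikzf3 lay at the 90.5th percentile of all genes and Ikzf2 at the 29.3rd. In length the 10 genes lay between the 70.7th and 98.3rd percentiles. Taken as 1 sum of intervals, the 10 genes had 4.71% and 4.91% called in KO and 4.8% and 4.7% in flox. The sum over all genes had 4.4% and 4.4% in KO and 4.65% and 4.53% in flox, close to these values. Library values separate 4 steps in the order of the 10 genes. Ikzf3 ran from 10.4% to 13.5%, above Tcf7 at 7.35% to 10.3%. Tcf7, Bcl11a, Pax5, Bach2 and Bcl11b overlapped from neighbour to neighbour, the last with 3.80% to 6.68%. Ebf1 (2.42% to 3.19%) lay below them, and Ikzf1, Foxo1 and Ikzf2 (0.379% to 2.30% together) lay below Ebf1.

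**Figure D1:**
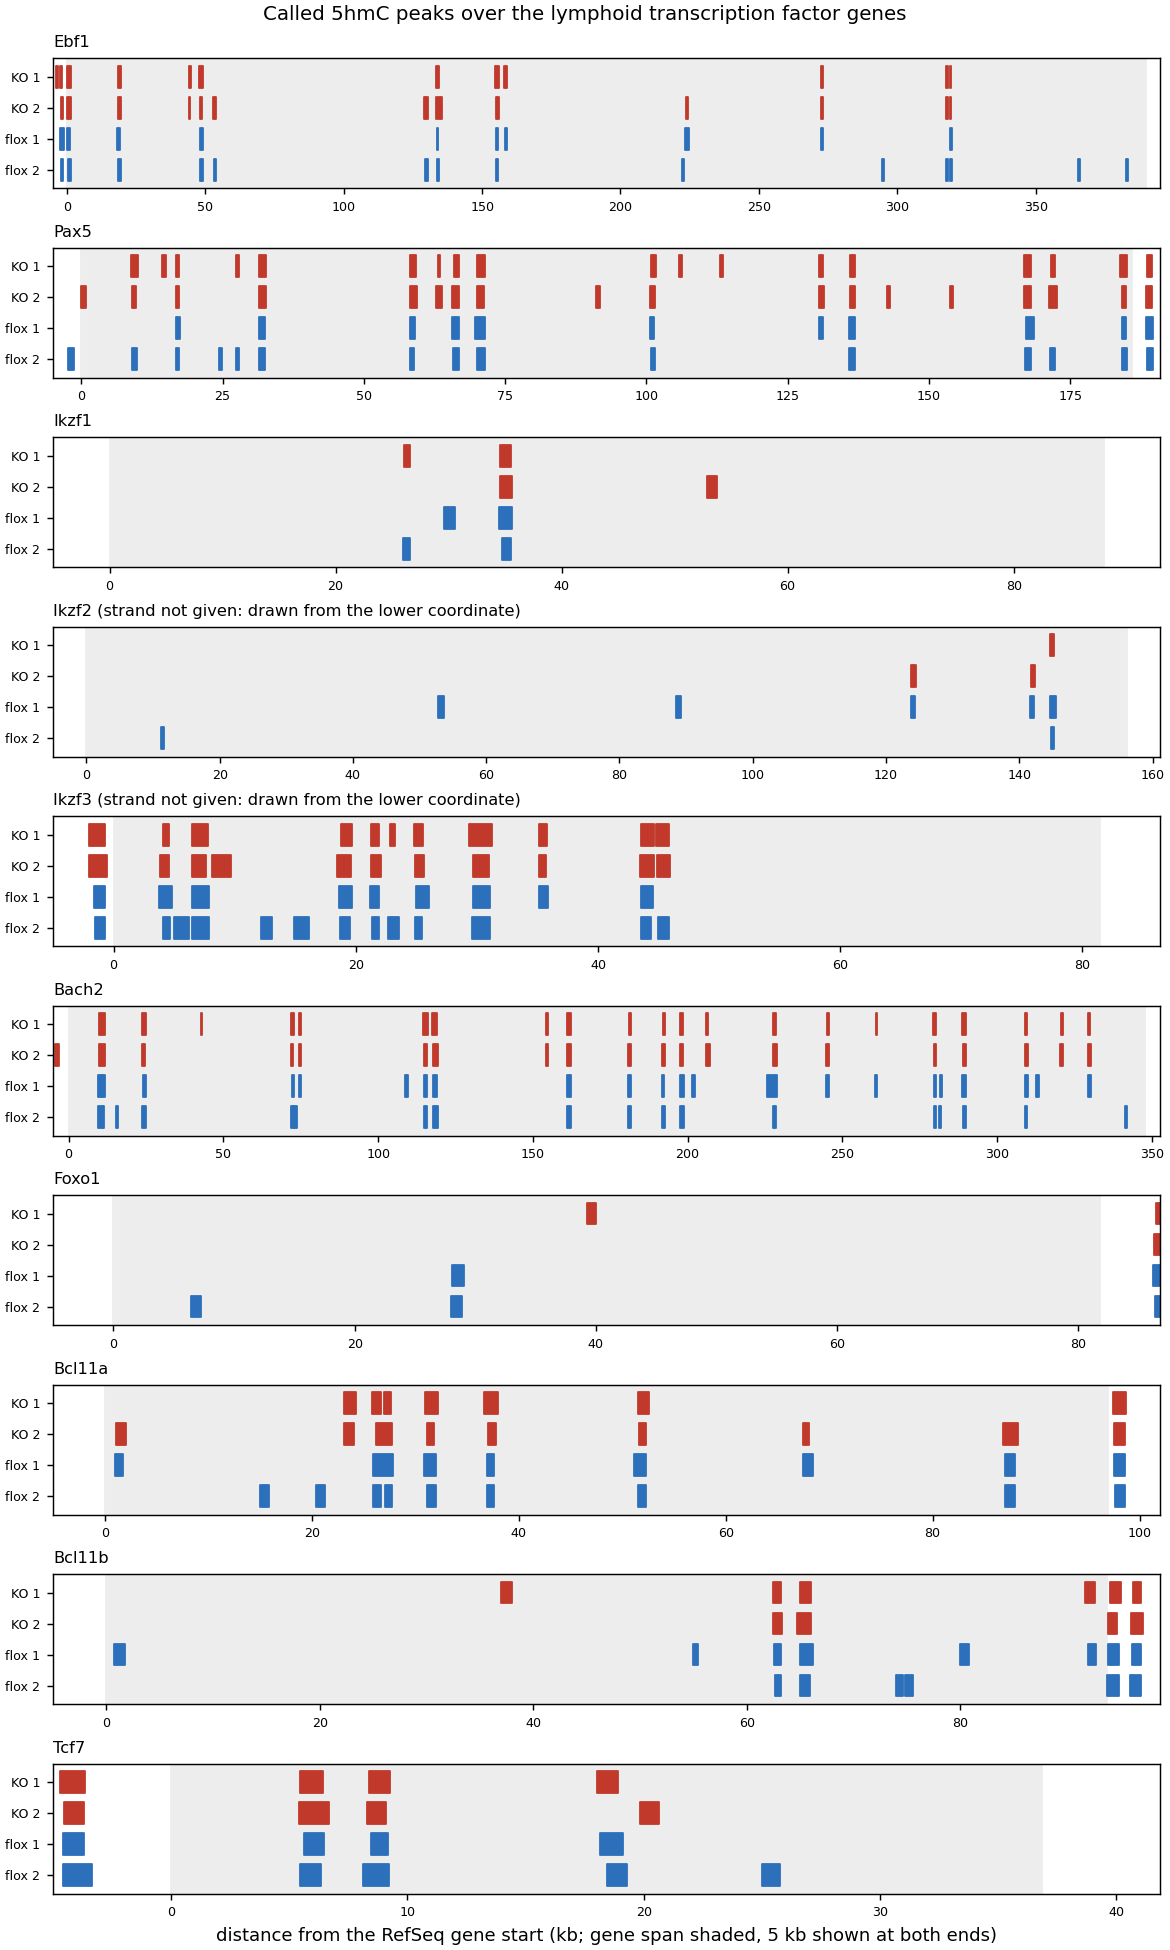
Peaks called over each of the 10 genes in KO replicates 1 and 2 (red, upper rows) and flox replicates 1 and 2 (blue, lower rows). The horizontal axis is the distance from the RefSeq gene start in kb, along the direction of transcription where the strand is known, with the gene span shaded and 5 kb shown at both ends; each gene has its own scale. Of the 130 regions, 52 were called in all 4 rows, and the remaining regions lie scattered between them.

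Summed over the 10 genes, KO libraries held 78041 and 81513 bp of called 5hmC and flox libraries 79578 and 77963 bp, out of intervals of 1658545 bp. The number of peaks was 85 and 86 in KO and 82 and 87 in flox. After scaling each library to the same genome-wide total, KO averaged 80168 ± 2039 bp and flox 78387 ± 376 bp (SD, n = 2 each), a ratio of 1.02. Before scaling the groups overlapped. After scaling, the KO libraries (78726 and 81610 bp) lay above the flox libraries (78121 and 78652 bp), by a mean difference smaller than the SD of the KO pair.

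Ebf1 encodes early B cell factor 1, which opens chromatin for the B cell programme and is required for the first B cell precursors. The gene (chromosome 11, 44618100 to 45008096, plus strand) held 20 regions, and 7 of them were called in all 4 libraries. Called length was 12210 and 12769 bp in KO and 9684 and 12306 bp in flox. Flox replicate 1 was low and flox replicate 2 lay between the KO libraries. The log2 difference was 0.20 (SE 0.16, limma adjusted p = 0.874), and it was 0.01 without flox replicate 1. A region called in every library (44618086 to 44619737) reached over the gene start, with 1652 and 1421 bp in KO and 1213 and 1222 bp in flox. The peak of KO replicate 1 alone covered the start itself, and the peaks of the other libraries began inside the gene. This region had the highest mean score of the Ebf1 regions called throughout, 175.6. Just upstream, at 44615700 to 44616979, the order was the reverse, with 723 and 610 bp in KO and 1280 and 746 bp in flox. The other shared regions shorter in both KO libraries lay at 44636213 to 44637619, with 1019 and 1007 bp in KO and 1102 and 1066 bp in flox, and at 44937091 to 44937800, with 531 and 563 bp in KO and 710 and 655 bp in flox. Another pair of regions called in every library was longer in both KO libraries, the one at 44751275 to 44752510 with 1021 and 1024 bp in KO and 474 and 832 bp in flox. The other lay at 44772914 to 44774166, with 1253 and 1018 bp in KO and 691 and 846 bp in flox. A stretch of 75.2 kb, from 54.0 to 129.2 kb into the gene, held no region in any library. The region at 44662072 to 44662870, 44.4 kb into the gene, was called in both KO libraries (799 and 493 bp) and in neither flox library. With peaks of a score of at least 100 alone, the difference for the gene was 0.69 (SE 0.21, limma adjusted p = 0.789), so it did not pass there either.

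Pax5, which represses genes of other lineages and keeps B cells committed, had the largest positive difference of the 10. The gene (chromosome 4, 44524748 to 44710694, minus strand) held 24 regions, 10 of them called in all 4 libraries. Called length was 16028 and 17019 bp in KO and 11722 and 13603 bp in flox, and both KO libraries lay above both flox libraries. KO had 18 and 18 peaks, and flox had 11 and 15. The log2 difference was 0.39 (SE 0.13), with an unadjusted p of 0.0291 and a limma adjusted p of 0.773 over 14162 genes, so it did not pass the test. Both KO libraries lay above both flox libraries in 14.6% of all genes tested, and 1 of the 10 genes, Pax5, had this order.

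The Pax5 regions are described here by whether every library had called them, a split that the calls themselves decide and that therefore does not locate the difference. In the 10 regions shared by all libraries, the KO libraries held 10512 and 10333 bp and the flox libraries 10978 and 10048 bp. In the other 14 regions, KO held 5516 and 6686 bp and flox 744 and 3555 bp. The peaks of these regions had low scores, 52.5 to 119.43, and with peaks of a score of at least 100 alone the difference for Pax5 was 0.05. Of these 14, 9 were called in 1 library, and 1 (44646879 to 44647850) was called in both KO libraries (485 and 972 bp) and in neither flox library. The strongest Pax5 region, at 44639175 to 44641097 and 70.6 kb into the gene, had scores of 1021.79 and 1119.53 in KO and 908.39 and 896.74 in flox. It ranked 271 and 153 in the KO lists and 369 and 345 in the flox lists, which describes its place within each list alone. Its called length was 1526 and 1148 bp in KO and 1780 and 1410 bp in flox. The region near the far end of the gene, at 44525594 to 44526889, was also strong in all libraries (485.43 and 547.95 in KO, 540.29 and 477.69 in flox). At the gene start, peaks were seen in 1 library at a time, at 44709894 to 44710744 in KO replicate 2 (851 bp) and at 44712038 to 44712969 in flox replicate 2 (932 bp).

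Foxo1, a forkhead factor that PI3 kinase signalling keeps out of the nucleus and that B cell precursors need for Rag and Il7r expression, had the largest negative difference. The gene (chromosome 3, 52268337 to 52350109, plus strand) held 4 regions. Called length was 1104 and 505 bp in KO and 1565 and 2109 bp in flox, and each KO value was below each flox value. The log2 difference was -0.86 (SE 0.36, unadjusted p = 0.0568, limma adjusted p = 0.822). Among all genes tested, 20.7% had both KO values below both flox values, and 1 of the 10 genes, Foxo1, had this order. The value rests on few peaks. The region at 52296346 to 52297377, 28.5 kb into the gene, was called in neither KO library and in both flox libraries (1008 and 892 bp). Of the other regions inside the gene, 52274798 to 52275564 was called in flox replicate 2 alone (767 bp) and 52307588 to 52308346 in KO replicate 1 alone (759 bp). The only region called in all 4 libraries, at 52354553 to 52355683, lay 4444 bp beyond the gene end and reached past the 5 kb limit, so part of it was not counted for the gene. It held 509 and 991 bp in KO and 1131 and 634 bp in flox. The last 41.8 kb of the gene held no region, and with 20 kb at both ends the difference was -0.19.

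**Figure D2:**
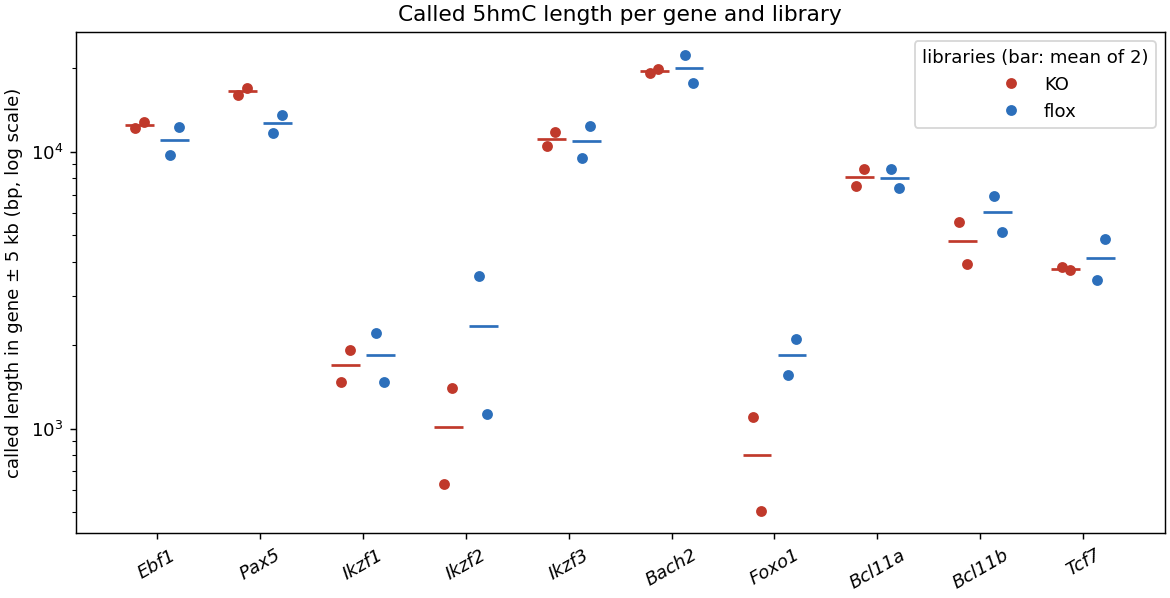
Called 5hmC length per gene in bp on a log scale, over the gene and 5 kb at both ends, before scaling. Points are libraries (KO red, left; flox blue, right) and bars are means of 2. KO points lie above both flox points at Pax5 and below both at Foxo1, and the groups overlap at the other 8 genes.

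The Ikaros family genes encode zinc finger factors that bind shared DNA sites and recruit chromatin remodelling complexes. The 3 members here include both the sparsest and the densest gene of the set. Ikzf1, which encodes Ikaros, a factor needed by all lymphocytes and also active in stem cells, had 4 regions (chromosome 11, 11684962 to 11772930, plus strand). Called length was 1470 and 1924 bp in KO and 2213 and 1469 bp in flox (log2 difference -0.07, SE 0.29, limma adjusted p = 0.980), with overlapping groups. A region at 11719416 to 11720604, 35.0 kb into the gene, was the only one called in every library, with 963 and 1105 bp in KO and 1189 and 787 bp in flox. Its scores were 224.83 and 189.47 in KO and 246.74 and 220.15 in flox. The region at 11710894 to 11711575 was called in KO replicate 1 (507 bp) and flox replicate 2 (682 bp). The other 2 were called in 1 library each, 11737860 to 11738678 in KO replicate 2 (819 bp) and 11714531 to 11715554 in flox replicate 1 (1024 bp). The first 25.9 kb and the last 34.3 kb of Ikzf1 held no region in any library.

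Ikzf2, which encodes Helios, a factor of regulatory T cells, had no region called in all 4 libraries (chromosome 1, 69531207 to 69687351). Called length was 630 and 1399 bp in KO and 3557 and 1126 bp in flox, so flox replicate 1 stood above the other libraries. The log2 difference was -0.80 (SE 0.52, limma adjusted p = 0.856), and it was -0.16 without flox replicate 1 and -1.44 without flox replicate 2. Of its 6 regions, 69675809 to 69676749 came closest to being shared, with 630 bp in KO replicate 1, 921 and 549 bp in flox, and no peak in KO replicate 2. The regions 69654965 to 69655768 and 69672881 to 69673510 were called in KO replicate 2 (804 and 595 bp) and in flox replicate 1 (538 and 581 bp). Peaks of flox replicate 1 alone covered 860 bp at 69584033 to 69584892 and 657 bp at 69619708 to 69620364. A peak of flox replicate 2 alone covered 577 bp at 69542335 to 69542911. All Ikzf2 peaks had scores of 50.31 to 119.42.

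Ikzf3, which encodes Aiolos, a factor of maturing B cells and plasma cells, was the densest gene of the set (chromosome 11, 98464610 to 98546031). It held 15 regions, 8 of them called in all 4 libraries. Called length was 10444 and 11734 bp in KO and 9467 and 12340 bp in flox (log2 difference 0.05, SE 0.18, limma adjusted p = 0.980). The flox libraries enclosed both KO libraries. The strongest region lay 526 bp outside the gene's lower coordinate, at 98462590 to 98464084. Its scores were 311.87 and 270.93 in KO and 434.11 and 440.56 in flox, while its called length was 1275 and 1495 bp in KO and 946 and 816 bp in flox. Here length and score, read within each list, took opposite orders. The region at 98493997 to 98495844 was the widest of the gene, with 1848 and 1360 bp in KO and 1435 and 1460 bp in flox. Regions lay within 46.0 kb of the lower end of the gene, and the remaining stretch of 35.4 kb held none. The strand of Ikzf3 and Ikzf2 is not given in the tables used here, so which end holds the start is not stated.

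Bach2, a repressor that restrains plasma cell and effector T cell differentiation and favours lymphoid over myeloid fate in progenitors, held the most regions and the strongest of them. The gene (chromosome 4, 32238413 to 32586109, plus strand) had 29 regions, 13 called in all 4 libraries. Called length was 19280 and 19861 bp in KO and 22324 and 17695 bp in flox (log2 difference -0.01, SE 0.13, limma adjusted p = 0.996). The flox libraries lay on either side of the KO libraries. The region at 32356003 to 32357773, 118.5 kb into the gene, had scores of 1558.94 and 1689.71 in KO and 1940.26 and 1423.44 in flox. It ranked 45 and 34 in the KO lists and 19 and 51 in the flox lists, among at least 116539 peaks in each. Its length was 1508 and 1490 bp in KO and 1381 and 1448 bp in flox, close in all libraries with both KO values the greater. The widest region of the 10 genes was at 32247959 to 32250066 (2108 bp), with 1323 and 1689 bp in KO and 1797 and 1960 bp in flox.

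Bach2, with 29 of the 130 regions, also held 4 of the 8 regions called in 1 genotype alone. Of its 29 regions, 3 were called in KO alone and 1 in flox alone. Over all regions of the genome these patterns made up 3.00% and 2.96%. Called in both KO libraries and in neither flox library were 32392732 to 32393236 (480 and 503 bp), 32444256 to 32445602 (685 and 1347 bp) and 32558756 to 32559823 (626 and 1068 bp). The last of these also overlaps Bach2os, a long non-coding RNA gene, by its upper end. Called in neither KO library and in both flox libraries was 32519771 to 32520613 (800 and 541 bp). Peaks called in 1 library alone numbered 8 in this gene, with 457 to 1325 bp. The start site in the promoter table lies 179.0 kb into the RefSeq span. Of the regions inside the span, 11 lay before that site and 17 after it, and of those called in all libraries 6 lay before and 7 after. The nearest region to the site was called in all 4 libraries and lay 1786 bp away (32419221 to 32420202), with 696 and 868 bp in KO and 966 and 969 bp in flox.

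Bcl11a and Bcl11b are related zinc finger repressors with different lineages. Bcl11a, needed for B cell precursors and known in erythroid cells as a repressor of fetal globin, had 11 regions (chromosome 11, 24076564 to 24173558, plus strand), 5 of them called in all 4 libraries. Called length was 7511 and 8641 bp in KO and 8672 and 7362 bp in flox (log2 difference 0.02, SE 0.16, limma adjusted p = 0.989), and the groups overlapped. Its strongest shared region lay 440 bp beyond the gene end (24173998 to 24175205), with 1208 and 1078 bp in KO and 1067 and 984 bp in flox, so both KO values were the greater. The region at 24102401 to 24104424, the second widest of the 10 genes, held 1537 and 1572 bp in KO and 1978 and 1465 bp in flox. The region at 24099689 to 24100877 was called in both KO libraries (1181 and 981 bp) and in neither flox library, with scores of 53.67 and 50.81, close to the lowest kept. Near the gene start, 24077577 to 24078596 was called in KO replicate 2 (918 bp) and flox replicate 1 (778 bp).

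Bcl11b, which completes T lineage commitment in the thymus, also had 11 regions (chromosome 12, 107910403 to 108004145, minus strand), 4 of them called in all 4 libraries. Called length was 5547 and 3939 bp in KO and 6932 and 5124 bp in flox (log2 difference -0.31, SE 0.24, limma adjusted p = 0.870). KO replicate 1 lay between the flox libraries and KO replicate 2 below them. Of the 7 regions not called throughout, 6 were called in 1 library. Of the regions called throughout, 2 lay just beyond the far end of the gene, at 107909085 to 107910393, 10 bp from it, and at 107907059 to 107908238. The strongest, at 107937933 to 107939441 and 65.5 kb into the gene, had scores of 197.96 and 218.25 in KO and 287.83 and 374.41 in flox, with 1012 and 1283 bp in KO and 1240 and 902 bp in flox. In the first part of the gene, from 1.8 to 37.0 kb, no library had a region.

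Tcf7, which encodes TCF1, the factor that starts the T cell programme downstream of Notch, was the shortest gene of the set (chromosome 11, 52246527 to 52283383, minus strand). Its 6 regions included 3 called in all 4 libraries. Called length was 3817 and 3722 bp in KO and 3442 and 4829 bp in flox (log2 difference -0.09, SE 0.23, limma adjusted p = 0.971), and the flox libraries enclosed the KO libraries. The region 6.0 kb into the gene (52276694 to 52277973) held 968 and 1280 bp in KO and 840 and 895 bp in flox, and both KO libraries lay above both flox libraries there. The next, at 52274133 to 52275247, held 900 and 785 bp in KO and 746 and 1085 bp in flox. Upstream of the start, 52286726 to 52288094 held 1063 and 852 bp in KO and 894 and 1235 bp in flox. A region at 52264096 to 52265357 lacked a peak in KO replicate 2 alone (886 bp in KO replicate 1, 962 and 854 bp in flox). Single peaks were seen in KO replicate 2 at 52262725 to 52263529 (805 bp) and in flox replicate 2 at 52257638 to 52258397 (760 bp). The low-coordinate end of the Tcf7 interval overlaps the neighbouring gene Skp1, but no region lay in that overlap.

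None of the 10 genes passed the test for a difference between KO and flox cells, and 0 of 14162 genes in the genome did (0% called by limma at an adjusted p of 0.05; 869 genes, 6.14%, at an unadjusted p under 0.05, 1.84% higher and 4.30% lower in KO). All 10 had passed the filter on low values, a mean of 500 bp. Of the 10, 6 had a negative and 4 a positive difference, with a median of -0.04, the same as the median over all genes tested, of which 54.6% were negative. At an unadjusted p under 0.05 there was 1 of the 10, Pax5.

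**Figure D3:**
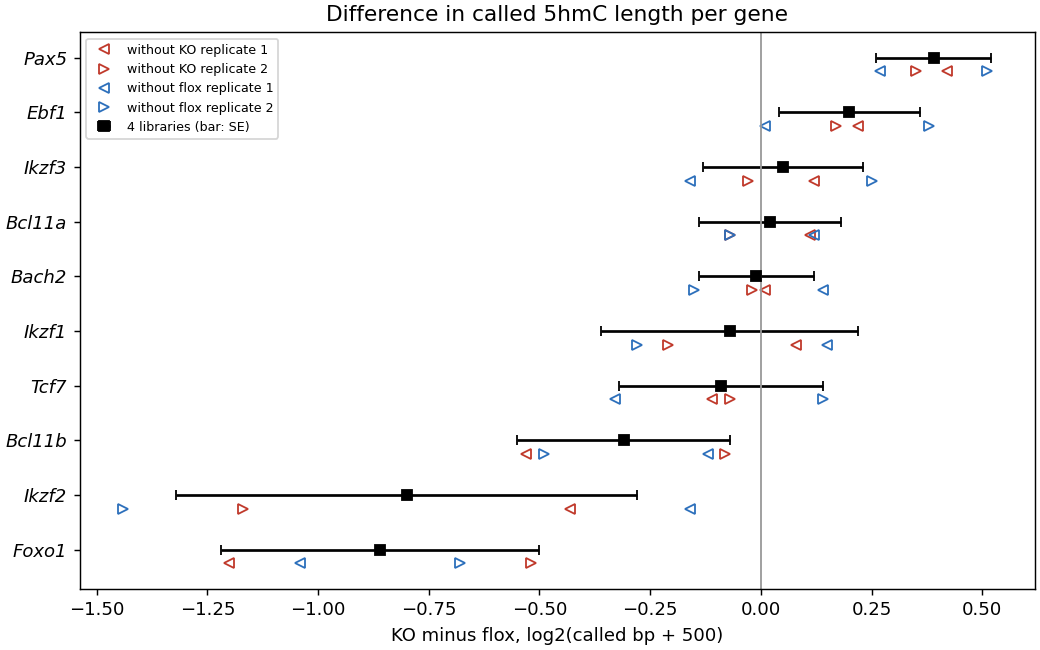
KO minus flox difference in log2(called bp + 500) for each gene, from all 4 libraries (black squares, bars are SE) and with 1 library left out (open triangles, red for KO and blue for flox libraries left out). Pax5 stays between 0.27 and 0.51 and Foxo1 between -1.20 and -0.52, while Ikzf2 runs from -1.44 to -0.16 and Ikzf3, Bcl11a, Bach2, Ikzf1 and Tcf7 have triangles on both sides of 0.

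Counted as regions, 6 were called in both KO libraries and in neither flox library, which is 4.62% of the 130, and 2 had the reverse pattern, 1.54%. Over all regions of the genome these shares were 3.00% and 2.96%, and over regions in protein-coding gene intervals 2.74% and 3.21%. The 6 lay in Bach2 (3), Ebf1, Pax5 and Bcl11a, and the 2 in Bach2 and Foxo1. These counts rest on pairs of weak peaks. The 16 peaks behind the 8 regions had scores of 50.81 to 119.43, and 2 of the 16 reached 100. With peaks of a score of at least 100 alone, there were 60 regions, of which 1 was called in KO alone and 2 in flox alone. With the 50000 highest scored peaks of each list there were 56 regions, and the counts were 1 and 3. With 1 library left out, a region needs a call in fewer libraries. The KO count was then 15 without KO replicate 1, 13 without KO replicate 2, 12 without flox replicate 1 and 10 without flox replicate 2. The flox count was 4, 3, 20 and 12 in the same order, out of 124, 121, 121 and 113 regions. Shares over all regions of the genome were not taken at these settings.

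Regions called in all 4 libraries made up 40.0% of the 130 regions, 39.5% of all regions and 40.5% of those in protein-coding gene intervals. Among these 52, called length was greater in both KO than in both flox libraries in 14 (26.9%) and smaller in 9 (17.3%). Over all 68764 such regions the shares were 15.8% and 17.7%. The 14 lay in Ebf1 (3), Pax5 (3), Ikzf3 (2), Bach2 (2), Bcl11a (2), Bcl11b and Tcf7, and the 9 in Ebf1 (3), Bach2 (3), Pax5, Ikzf3 and Bcl11b. At Pax5, the 3 were 44608949 to 44610017 (930 and 785 bp in KO, 730 and 699 bp in flox), 44651352 to 44652556 (973 and 1133 bp in KO, 905 and 814 bp in flox) and 44677971 to 44679302 (1296 and 1235 bp in KO, 1022 and 1108 bp in flox). The Pax5 region among the 9 was 44573687 to 44574833, with 903 and 959 bp in KO and 1045 and 1059 bp in flox. Regions seen in 1 library alone made up 33.8% of the 130, against 27.3% of all regions. They numbered 7 and 9 in the KO libraries (5.38% and 6.92% of the 130) and 10 and 18 in the flox libraries (7.69% and 13.85%). Over all regions these shares were 6.22% and 7.37% in the KO libraries and 6.63% and 7.06% in the flox libraries. Flox replicate 2 had the most at these genes, and KO replicate 2 had the most over all regions.

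The regions shared by all libraries had higher scores, a measure on which the calling itself rests. Their peaks had a median score of 136.88 and a median percentile of 72.4 within their own lists, against 60.77 and 15.4 for regions called in 1 library. Regions of 2 and 3 libraries lay at median percentiles of 30.1 and 27.9. Median region length was 1280 bp for those called in all libraries and 812 bp for those called in 1. Over the whole genome the median scores were 126.5 and 63.93. In 2 of the 130 regions, the strongest of Bach2 and of Pax5, the score was at least 500 in all 4 libraries.

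**Figure D4:**
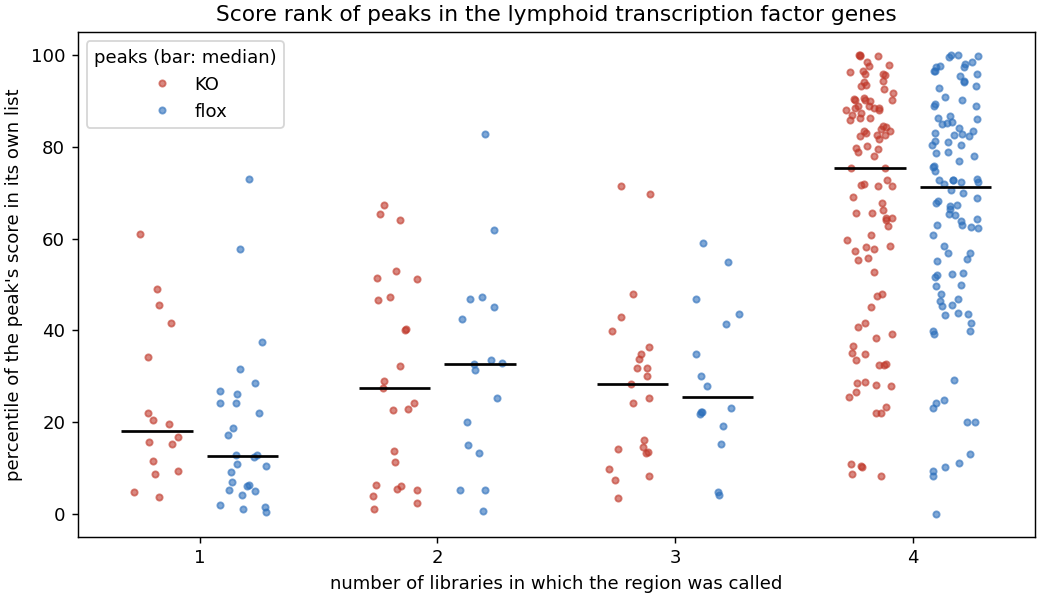
Percentile of each peak's score within its own list (vertical axis, 100 is the highest) against the number of libraries in which its region was called (horizontal axis), for KO peaks (red, left) and flox peaks (blue, right) in the 10 genes. Black bars are medians. Peaks of regions called in all 4 libraries reach the top of the lists, while the median percentile is 15.4 for regions of 1 library.

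Between pairs of libraries, the share of these regions called in both, out of those called in either, was 68.0% for the KO pair and 52.8% for the flox pair. The pairs of 1 KO and 1 flox library ran from 53.6% to 62.7%. Over all regions of the genome the 6 pairs ran from 59.6% to 61.1%. At these genes the KO libraries thus shared more of their calls than the flox libraries did, and flox replicate 2 was in each of the 3 lowest pairs.

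Among genes related to the 10 by family there was also no call. Of 18 such genes, 16 had enough called length to be tested, 11 with a negative and 5 with a positive difference (median -0.10), and 0 passed. Tcf7l1, a relative of Tcf7 that mostly represses Wnt targets, had 11154 and 10880 bp in KO and 15115 and 13801 bp in flox (log2 difference -0.36, SE 0.12, unadjusted p = 0.0244, limma adjusted p = 0.773). Each KO value was below each flox value, as in 20.7% of all genes tested. The relatives given here with values per library were named for having no overlap between KO and flox, so that order is no finding. At Tcf7l1, 2 regions were called in flox alone, at Foxo3 1 was, and Ebf2 had 1 called in KO alone. Over all regions of the genome, 2.96% were called in flox alone and 3.00% in KO alone. How many regions each relative held in all is not given, so its share is not known. Tcf7l2, another mediator of Wnt signals, had 13019 and 13661 bp in KO and 14635 and 15761 bp in flox (-0.17, SE 0.12), and the difference was 0.54 with peaks of a score of at least 100 alone. Foxo3, a forkhead factor with roles overlapping Foxo1, had 2514 and 3512 bp in KO and 4824 and 3897 bp in flox (-0.46, SE 0.24), and the difference was 0.08 with 20 kb at both ends. Ebf2, a relative of Ebf1 known from fat cells, had 14606 and 14612 bp in KO and 13152 and 12720 bp in flox (0.18, SE 0.11). Within families, density varied as it did among the 10. Ikzf4 had 7.61% of its interval called and Ikzf5 had no peak in any library. Foxo6 had 20.1% and Foxo3 3.52%, while Bach1, the relative of Bach2, had 2.07%.

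Lists of B cell and of T and NK cell lineage genes held no call either. Of 30 B cell lineage genes, 24 were tested, 11 with a negative and 13 with a positive difference (median 0.02), and 0 passed. Fcrla, a B cell protein related to Fc receptors, had 2751 and 3214 bp in KO and 2034 and 1265 bp in flox (log2 difference 0.73, SE 0.28, limma adjusted p = 0.800). It was -0.52 with the 50000 highest scored peaks of each list. Prdm1, which encodes Blimp-1, the driver of plasma cell differentiation that Bach2 represses, had 1901 and 1775 bp in KO and 2821 and 2943 bp in flox (-0.52, SE 0.23, limma adjusted p = 0.824), and the difference was 0.06 with peaks of a score of at least 100. Cd79b, part of the B cell receptor, stood at -0.43 and Spib, an Ets factor of B cells, at -0.12. Of 30 T and NK cell lineage genes, 27 were tested, 15 with a negative and 12 with a positive difference (median -0.02), and 0 passed. Notch1, the receptor that starts T cell development, had 2104 and 591 bp in KO and 2800 and 2589 bp in flox (-0.91, SE 0.46). Tox, a factor of CD4 T cell development, had 6841 and 8114 bp in KO and 9368 and 12088 bp in flox (-0.47, SE 0.19), and the difference was 0.70 with peaks of a score of at least 100. Eomes, a T-box factor of NK and memory T cells, stood at -0.31, and at 0.19 with that cutoff. Rora, a nuclear receptor of innate lymphoid cells, stood at 0.05. It had 2 regions called in KO alone and 1 in flox alone, Tox had 1 of each, and the other genes named from these lists had none. Over all regions of the genome these patterns made up 3.00% and 2.96%. How many regions Rora and Tox held in all is not given, so their shares are not known. The genes of these lists were named for having no overlap between KO and flox values, so that order is no finding.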

How the data were processed

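Peak lists of 4 antibody libraries were used. The other samples of the series, an input and an IgG control, were not analysed here. The submitters' processing notes name CASAVA 1.8, MACS 1.4 and Bowtie, and as build GRCm38 (mm10), without saying what each did. Caller settings, the control library and the handling of duplicates are not stated there or in the labels. In the deposited lists, every peak has its positions in bp with a score and a p-value, which are the authors' own values for that peak within its library. The score was checked to equal 10 times the negative log10 of the deposited p-value, within 0.02.

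Gene spans came from RefSeq on GRCm38.p6, without exons, and positions are counted from 1. Called bp per gene (span and 5 kb at both ends) were scaled to a common genome-wide total. The test was limma 3.58.1 in R 4.3.3 (trend, robust, two-sided) on log2(bp + 500), with Benjamini-Hochberg adjustment over the 14162 genes that averaged 500 bp or more. This scale understates changes of genes with little called length. Values in bp per library are unscaled. The fit was first run on simulated data, and that run is not used here to say what size of change the test could find. bedtools 2.31.1 gave the same 174070 regions. Python 3.11.15, pandas 2.3.3, numpy 2.4.6, scipy 1.17.1 and matplotlib 3.10.9 were used.

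The members and gene lists were chosen with earlier results of these data known. All 10 members were named. From each other list, up to 3 genes per direction were named, by size of difference, among those whose KO and flox values did not overlap and that averaged 2000 bp or more. A gene that met this rule is not reported here. Alternatives were cutoffs on score and rank, other intervals and overlap rules, another pseudocount, no filter, no scaling, peak number, a replicate block, and leaving out single libraries.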

Additional observations from a re-analysis of the deposited data

How the results depend on the processing

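The count of genes past the limma threshold was 0 under all 13 alternatives, and the lowest adjusted p of any gene was 0.232, by number of peaks. Same-numbered libraries did not deviate together in called length (r = 0.006 over 14162 genes). This value cannot show whether they shared a culture, so pairing of the samples remains unknown. With the replicate block the count was 0 and 882 genes had an unadjusted p under 0.05. Pax5, Ebf1, Foxo1, Ikzf2 and Bcl11b kept their direction in every alternative that gave a value. Foxo1, Ikzf2 and Tcf7 fell under the filter when peaks with a score under 100, or outside the 50000 highest scored, were left out. Regions called in KO alone numbered 1 of 60 with a score of at least 100 and 1 of 56 with the 50000 highest scored peaks. With 1 library left out they numbered 10 to 15, out of 113 to 124 regions. Those called in flox alone numbered 2 and 3 with the same cutoffs, so the order of the KO and flox counts was reversed there. Those called in flox alone numbered 4 of 157 with 20 kb at both ends, and 3 to 20 with 1 library left out. Regions called in all libraries numbered 24 of 60 and 23 of 56 with those 2 cutoffs on peaks, against 52 of 130 before. The summed length, KO over flox, was 1.06 with a score of at least 100, 1.08 with the 50000 highest scored peaks and 0.995 with 20 kb at both ends. The number of regions counted changes by construction with fewer peaks, fewer libraries or longer intervals. The cause of the moves in the ratio and in the order of KO and flox counts was not tested.

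Some differences turned sign, from close to 0 (Bach2, Bcl11a, Ikzf3) up to the 0.73 of Fcrla, and the cause was not tested. With a score of at least 100 and with the 50000 highest scored peaks, Ikzf1 stood at 0.05 and 0.07, Bcl11a at -0.32 and -0.16, Tcf7l2 at 0.54 and 0.56, Prdm1 at 0.06 and 0.09, Tox at 0.70 and 0.46, and Eomes at 0.19 and 0.22. Fcrla stood at -0.52 with the 50000 highest. Without the 5 kb Ikzf3 was -0.02, with 20 kb Bcl11a was -0.03 and Foxo3 0.08, and by number of peaks Bach2 was 0.07 and Bcl11a -0.10. With 1 library left out, Ikzf1 ranged from -0.28 to 0.15, Ikzf3 from -0.16 to 0.25, Bach2 from -0.15 to 0.14, Bcl11a from -0.07 to 0.12 and Tcf7 from -0.33 to 0.14. Depth behind the peak lists was unknown, so a region not called in a library may lie just under the caller's limit.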
